A study of Zea mays with 12 samples.

Results

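Maize genes for 4 enzymes that dismantle a dying plant cell were followed through the last day of the persistent synergid: the proteases ZmCEP1 and ZmVPEγ and the nucleases ZmENDO1 and ZmNEN4. They were taken by gene identifier, as 4 of the 45246 genes and loci in the deposited tables, and all 4 were present. Transcripts were sequenced from synergid cells of the inbred line B73 isolated by hand, in 12 libraries of 25 to 28 cells each. SC denotes synergid cells before pollination (0 hours after pollination, HAP). pSC12, pSC18 and pSC24 denote the synergid that persists after one of the pair has received the pollen tube, collected at 12, 18 and 24 HAP. Each stage had 3 libraries, and the labels give no treatment beside pollination. Each library pools cells, so a level is a mean over cells, and fewer cells expressing a gene cannot be told apart from less RNA per cell. The labels call the 3 libraries of a stage biological replicates without saying which plants the cells came from, so p-values measure the spread between these libraries.

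Synergids are the accessory cells beside the egg cell that draw in and receive the pollen tube, and the one left over after fertilization is removed. In plants, developmental cell death usually proceeds from the inside. Hydrolases are made and stored in the vacuole or the endoplasmic reticulum, the vacuole ruptures, and the released proteases and nucleases digest the cell content. KDEL-tailed cysteine endopeptidases such as CEP1 are papain-type proteases with a retention signal for the endoplasmic reticulum, and CEP1 is known from the dying tapetum of Arabidopsis. Vacuolar processing enzymes (VPEs) are legumain-type proteases that cut after asparagine and aspartate, mature other vacuolar enzymes and have a caspase-like activity. S1/P1-type nucleases such as ENDO1 cut RNA and single-stranded DNA. NEN proteins are exonucleases known from the enucleation of sieve elements in Arabidopsis.

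The gene coordinates are those of the deposited tables, on maize genome build AGPv5. ZmCEP1 (Zm00001eb039650) lies on chromosome 1 from 210055771 to 210057636 and is described there as KDEL-tailed cysteine endopeptidase CEP1. ZmVPEγ (Zm00001eb345400) lies on chromosome 8 from 80209740 to 80211408 and is described only as a vacuolar-processing enzyme. ZmENDO1 (Zm00001eb043930, Endonuclease 1) lies on chromosome 1 from 230459839 to 230462019, and ZmNEN4 (Zm00001eb267630, Protein NEN4) on chromosome 6 from 52605100 to 52606565. All 4 are on the minus strand. No gene of the table overlapped any of them.

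Totals assigned to genes ran from 15435736 to 26539602 counts per library. Levels are given in the deposited unit FPKM, fragments scaled to gene length and library depth, so that genes of different length can be compared, and counts are given beside them where they are low. A gene with at most 3 counts in a library was taken as at the floor. At the depth of these libraries 3 counts correspond to 0.0586 to 0.129 FPKM for these genes, as the mean over a stage. The synergid marker ZmES4 (Zm00001eb393820) was between 6018 and 13051 FPKM in all 12 libraries, so each library held abundant synergid RNA. The synergid transcription factor MYB98 (Zm00001eb212880) fell from 1120 ± 79.0 FPKM in SC to 97.9 ± 70.0 in pSC24 (SD, n = 3; edgeR adjusted p = 3e-05).

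All 4 executioner genes were high only in pSC24, and none was above 7 FPKM in any earlier library. The 4 genes together held 0 to 12.7 CPM (counts scaled to library depth) in the 9 libraries of SC, pSC12 and pSC18. In the 3 pSC24 libraries they held 502.2, 422.2 and 569.9 CPM.

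**Figure D1:**
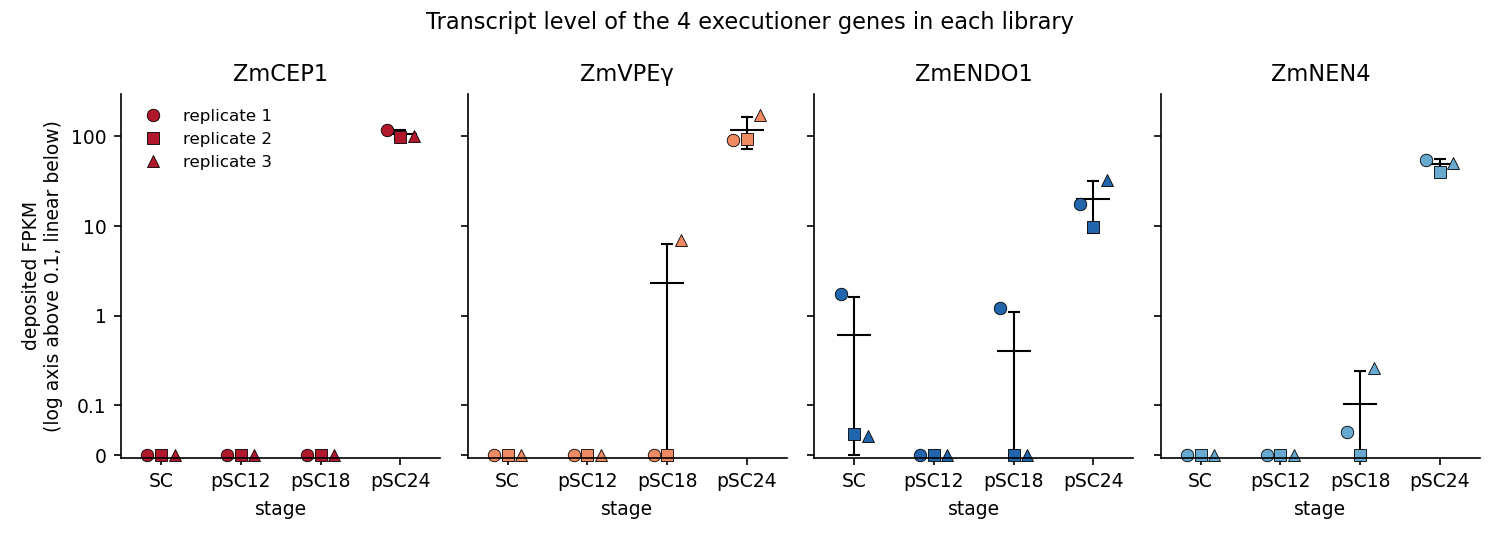
Deposited FPKM of the 4 genes (vertical axis, logarithmic above 0.1 and linear below) in each of the 12 libraries by stage (horizontal axis). Symbols mark the replicate number, horizontal bars the stage mean and whiskers the SD of 3 libraries, drawn only where the mean is above 0; every pSC24 library lies above every earlier one, and early values above the floor of 3 counts come from a single library of their stage, such as 6.97 FPKM of ZmVPEγ in pSC18.

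ZmCEP1 had 0 counts in each of the 9 earlier libraries. In the 3 pSC24 libraries it reached 4630, 4726 and 4352 counts, or 118.4, 97.2 and 101.3 FPKM. All 3 were thus high and close to each other, with a coefficient of variation of 10.6%. Its pSC24 mean of 105.6 ± 11.2 FPKM (SD, n = 3) was at least 1172-fold higher than pSC18, taking pSC18 at 3 counts per library. Against the floor of SC and of pSC12 the bounds were at least 1057-fold and at least 1803-fold higher, the last being larger because the pSC12 libraries were the deepest.

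ZmVPEγ had 0 counts in 8 of the 9 earlier libraries. The exception was pSC18 replicate 3, with 257 counts or 6.97 FPKM. In pSC24 it reached 3330, 4303 and 6984 counts, or 90.1, 93.6 and 171.9 FPKM. Replicate 3 of pSC24 was thus well above the other two. The mean was 118.5 ± 46.3 FPKM (SD, n = 3), at least 1121-fold higher than SC and at least 1913-fold higher than pSC12. Against pSC18 the ratio of the means was 51.0, and the lowest pSC24 library was still 12.9 times the single pSC18 library with reads.

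ZmENDO1 was the weakest of the 4 and the only one with reads before pollination. In SC it had 44, 1 and 1 counts, the first of these being 1.76 FPKM. In pSC12 it had 0 counts in each library, and in pSC18 28, 0 and 0 counts, the first being 1.22 FPKM. In pSC24 it had 571, 394 and 1165 counts, or 17.5, 9.72 and 32.5 FPKM. The early counts above the floor thus sat in a single library of each of SC and pSC18, and the pSC24 libraries spread more widely than those of the other 3 genes, with a coefficient of variation of 58.2%. The pSC24 mean of 19.9 ± 11.6 FPKM (SD, n = 3) was at least 283.5-fold higher than pSC12, and was 32.5 times the SC mean and 49.0 times the pSC18 mean.

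ZmNEN4 had 0 counts in the 6 libraries of SC and pSC12. In pSC18 it had 1, 0 and 8 counts, so that only replicate 3 passed the floor, at 0.264 FPKM. In pSC24 it reached 1673, 1512 and 1686 counts, or 55.1, 40.0 and 50.5 FPKM. The mean was 48.5 ± 7.72 FPKM (SD, n = 3), at least 377.2-fold higher than SC and at least 643.6-fold higher than pSC12. Against pSC18 the ratio of the means was 469, with pSC18 resting on 9 counts.

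The question of when the enzymes are switched on was put to an edgeR quasi-likelihood test across all 21143 genes that passed a filter on low counts, between each pair of stages. Genes that are silent early enter this test only through pSC24, so that passing the filter and being called are linked, and the study picked these genes from these same libraries. From pSC18 to pSC24 all 4 were called higher, where 4.82% of all tested genes were. The adjusted p was 4.1e-05 for ZmCEP1, 0.00015 for ZmNEN4, 0.023 for ZmVPEγ and 0.035 for ZmENDO1. From pSC12 to pSC24 all 4 were called higher, against 8.68% of tested genes, with edgeR adjusted p from 1.1e-05 to 0.0047. From SC to pSC24 all 4 were called higher, against 10.3% of tested genes. Here the edgeR adjusted p was 2.6e-06 for ZmCEP1, 2.2e-05 for ZmNEN4, 0.0029 for ZmVPEγ and 0.029 for ZmENDO1. In each of the 3 comparisons the pSC24 libraries of all 4 genes lay above those of the earlier stage without overlap.

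The calls of ZmCEP1 and ZmNEN4 stood in all 25 alternative fits, while those of ZmENDO1 against SC and pSC18 and of ZmVPEγ against pSC18 depended on the fit. Without pSC24 replicate 3, the highest library of both, the pSC18 to pSC24 step had an edgeR adjusted p of 0.062 for ZmVPEγ and 0.11 for ZmENDO1, and the step of ZmENDO1 from SC had 0.098. DESeq2 on all 12 libraries called 2 of the 4 genes from pSC18 to pSC24, 3 of 4 from pSC12 to pSC24 and 2 of 4 from SC to pSC24. It gave no adjusted p for ZmVPEγ in any of these comparisons, so it did not call that gene. The share of all genes that this form of DESeq2 called is not given here, and the edgeR shares above do not apply to it. Over all fits, at most 1561, 2452 and 2911 genes were called higher from pSC18, pSC12 and SC to pSC24.

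Between the earlier stages edgeR called none of the 4. Counts with an unadjusted p under 0.05 use a looser threshold than the calls. The share of all tested genes at that threshold was not counted, so these counts cannot be read as an excess. From SC to pSC12 the share called in either direction was 2.8% of tested genes, and 1 of the 4 had an unadjusted p under 0.05. That gene was ZmENDO1, at 0.612 ± 0.991 FPKM in SC against 0 counts in pSC12 (edgeR adjusted p = 0.16). DESeq2 on these 6 libraries called it lower (adjusted p = 0.018), among 632 genes called lower, and DESeq2 on all 12 did not. The share called from pSC12 to pSC18 was 0.0236% of tested genes. Of the 4, 3 had an unadjusted p under 0.05, and DESeq2 called none in either form. The edgeR adjusted p was 0.26 for ZmVPEγ and ZmNEN4 and 0.38 for ZmENDO1. The share called from SC to pSC18 was 4.3%. Of the 4, 2 had an unadjusted p under 0.05, and DESeq2 again called none. The pSC18 reads of ZmVPEγ and ZmNEN4 thus did not pass the test against either earlier stage.

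The early reads can be set beside how much else each library held alone. In pSC18 replicate 3, 275 genes had more than 20 counts while the other 8 early libraries had at most 3 each. In those other 8 libraries the number of such genes was 2 to 42. ZmVPEγ was among the 275, and 7 of the 275 had a mean of 5 FPKM or more in pSC24. ZmENDO1, with reads in both SC replicate 1 and pSC18 replicate 1, was not particular to one early library. Whether the reads of ZmVPEγ in pSC18 replicate 3 belong with that library's other private genes was not tested.

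Per length, the order in pSC24 was ZmVPEγ, ZmCEP1, ZmNEN4, ZmENDO1. The first pair overlapped: ZmCEP1 was 1.31 and 1.04 times ZmVPEγ in replicates 1 and 2 and 0.589 times in replicate 3. Without pSC24 replicate 3 ZmCEP1 stood first, at 107.8 against 91.8 FPKM. Both lay above ZmNEN4 in all 3 libraries without overlap, ZmCEP1 by 2.15, 2.43 and 2.01 times and ZmVPEγ by 1.64, 2.34 and 3.40 times. ZmENDO1 lay lowest, at 0.318, 0.243 and 0.644 times ZmNEN4, also without overlap. The proteases therefore stood above the nucleases in each pSC24 library.

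Among all 45246 genes and loci ranked by pSC24 mean, ZmVPEγ held rank 442, ZmCEP1 rank 521, ZmNEN4 rank 1524 and ZmENDO1 rank 4091. Their spread can be read against the 6886 genes between 10 and 200 FPKM in pSC24, whose median coefficient of variation over the 3 libraries was 15.8%. ZmCEP1 at 10.6% and ZmNEN4 at 15.9% were ordinary in this respect, with 27.6% and 50.2% of those genes varying less. ZmVPEγ at 39.1% and ZmENDO1 at 58.2% varied more than 92.9% and 97.7% of them. Both were highest in replicate 3, the pSC24 library in which MYB98 was at 179 FPKM against 59.7 and 55.2 in the others. Its part in their levels was not tested.

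The switch was described among the genes that behave alike. In all, 39 genes and loci had at most 3 counts in each of the 9 earlier libraries and a mean of 5 FPKM or more in pSC24. ZmCEP1 was the highest of these, 2.82 times the next, Zm00001eb230160, which has no protein match and reached 37.5 FPKM. When only the 6 libraries of SC and pSC12 had to be at the floor, 94 genes and loci qualified. By mean level ZmVPEγ then ranked 3, ZmCEP1 ranked 4 and ZmNEN4 ranked 11, behind Zm00001eb169810 (described as sphinganine C4-monooxygenase 2, 335.6 FPKM) and Zm00001eb154800 (an alliin lyase, 138.2 FPKM). ZmENDO1 did not qualify, because of its 44 counts in SC replicate 1.

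**Figure D2:**
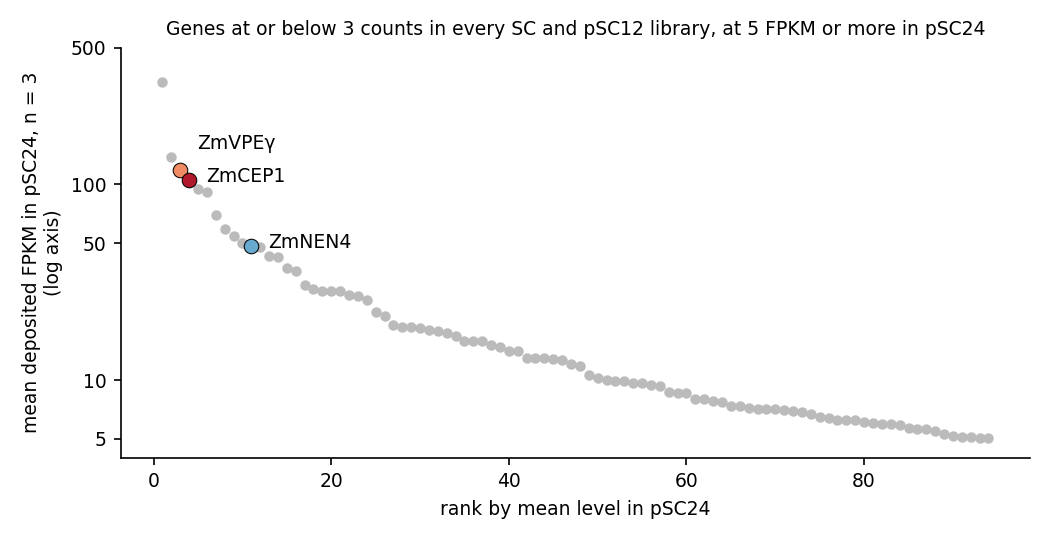
Mean deposited FPKM in pSC24 (vertical axis, logarithmic, n = 3) of the 94 genes and loci with at most 3 counts in every SC and pSC12 library and 5 FPKM or more in pSC24, by rank (horizontal axis). Grey points are other genes; ZmVPEγ, ZmCEP1 and ZmNEN4 hold ranks 3, 4 and 11.

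Within its family, ZmCEP1 entered a setting already rich in papain-type proteases. The table held 66 genes with the papain domain, 7 of which were at 1 FPKM or more in SC and 9 in pSC24. Cysteine proteinase 2 (Zm00001eb314220) was the most abundant throughout, at 1592 ± 67.1 FPKM in SC and 1082 ± 48.5 in pSC24 (SD, n = 3). Cysteine proteinase 1 (Zm00001eb240700) was at 232 ± 17.0 and 264 ± 22.9 FPKM. ZmCEP1 made up 6.38% ± 0.809 (SD, n = 3) of the summed family level in pSC24 and 0% before. Of the 11 members tested, 2 were called higher from SC to pSC24 and 1 lower. Of all tested genes, 10.3% were called higher and 7.57% lower. Beside ZmCEP1, the gene that rose was Zm00001eb066830, described as oryzain beta chain, a papain-type protease named from rice seeds. It was at 57.0, 51.0 and 54.5 FPKM in SC and 146, 210 and 206 in pSC24, a 3.46-fold rise (edgeR adjusted p = 1.2e-05). This gene was thus present before and rose, where ZmCEP1 went from no counts. Zm00001eb020430, described as the senescence-specific protease SAG39, fell from 5.68 ± 0.977 to 2.35 ± 0.990 FPKM. The median log2 change of the 11 was 0.27, against 0.05 for all tested genes.

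ZmVPEγ changed which member of its family was the most abundant. The table held 5 vacuolar processing enzymes. Zm00001eb075460, described as the beta-isozyme 1, began at 109 ± 26.9 FPKM in SC, was lower in pSC12 (45.0) and pSC18 (59.7), and ended at 80.2 ± 4.07 (SD, n = 3). The change of this gene from SC to pSC24 did not pass the test (edgeR adjusted p = 0.078). ZmVPEγ held 0% of the family's summed FPKM in SC and pSC12, 0 to 10.8% in pSC18, and 51.9 to 68.2% in pSC24. The other 3 members stayed under 2 FPKM in every library. Zm00001eb162210 and Zm00001eb356840 carry the same description as ZmVPEγ, and had 0 to 63 and 8 to 96 counts per library. Of the 4 members tested, 1, ZmVPEγ, was called from SC to pSC24, where 10.3% of all tested genes were called higher and 7.57% lower. The median log2 change of the 4 was 0.21.

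ZmENDO1 remained a small part of its family. The S1/P1-type nucleases are 4 genes, and Endonuclease 4 (Zm00001eb335070) was at 720 ± 52.4 FPKM in SC and 633 ± 152 in pSC24. Its fold change from SC turned from -0.20 on the log2 scale to 0.02 when libraries were scaled to their total counts, and was called under neither. One of 2 genes described as Endonuclease 2, Zm00001eb125480, was at 145 ± 17.3 and 86.7 ± 24.4 FPKM. It was not called, since its fall was under the fold threshold (edgeR adjusted p = 0.0064). ZmENDO1 reached 2.56% ± 0.993 (SD, n = 3) of the summed family level in pSC24. The other Endonuclease 2, Zm00001eb068120, was also highest in pSC24, at a lower level than ZmENDO1 there and a higher one in SC. It was at 0.687, 1.81 and 0.686 FPKM in SC, at most 0.174 in any pSC12 or pSC18 library, and at 6.20, 1.21 and 13.1 in pSC24. It was called higher than in pSC18 and pSC12 and not than in SC, where the libraries overlapped. Replicate 3 was its highest and replicate 2 its lowest pSC24 library, the same order as in ZmENDO1. The median log2 change of the 4 from SC to pSC24 was 1.24.

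The summed level of the NEN family was 2.75 FPKM before pollination and 0.420 and 0.586 FPKM at pSC12 and pSC18, against 70.6 FPKM at pSC24, most of it ZmNEN4. Of its 6 genes only ZmNEN4 and Zm00001eb223190, described as Protein NEN1, could be tested. Both were called higher in pSC24 than in each earlier stage. The share of all tested genes called higher was 4.82% against pSC18, 8.68% against pSC12 and 10.3% against SC. Zm00001eb223190 was at 0.955, 3.98 and 3.13 FPKM in SC, fell under 1 FPKM in every pSC12 and pSC18 library, and reached 27.8, 9.94 and 27.9 in pSC24. Unlike ZmNEN4 it was thus present in SC, and its pSC24 mean was 8.15 times that of SC (edgeR adjusted p = 0.014), a call that stood in 23 of 26 settings and was lost without SC replicate 1 (edgeR adjusted p = 0.055). ZmNEN4 made up 64.4 to 80.1% of the summed family FPKM in pSC24. The 2 other genes described as NEN4 had 0 counts in every library (Zm00001eb265840) or 8 counts in pSC18 replicate 3 and in pSC24 replicate 1 (Zm00001eb356270). The sources used here do not say how reads shared by near-identical copies were counted, so these low counts are uncertain.

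**Figure D3:**
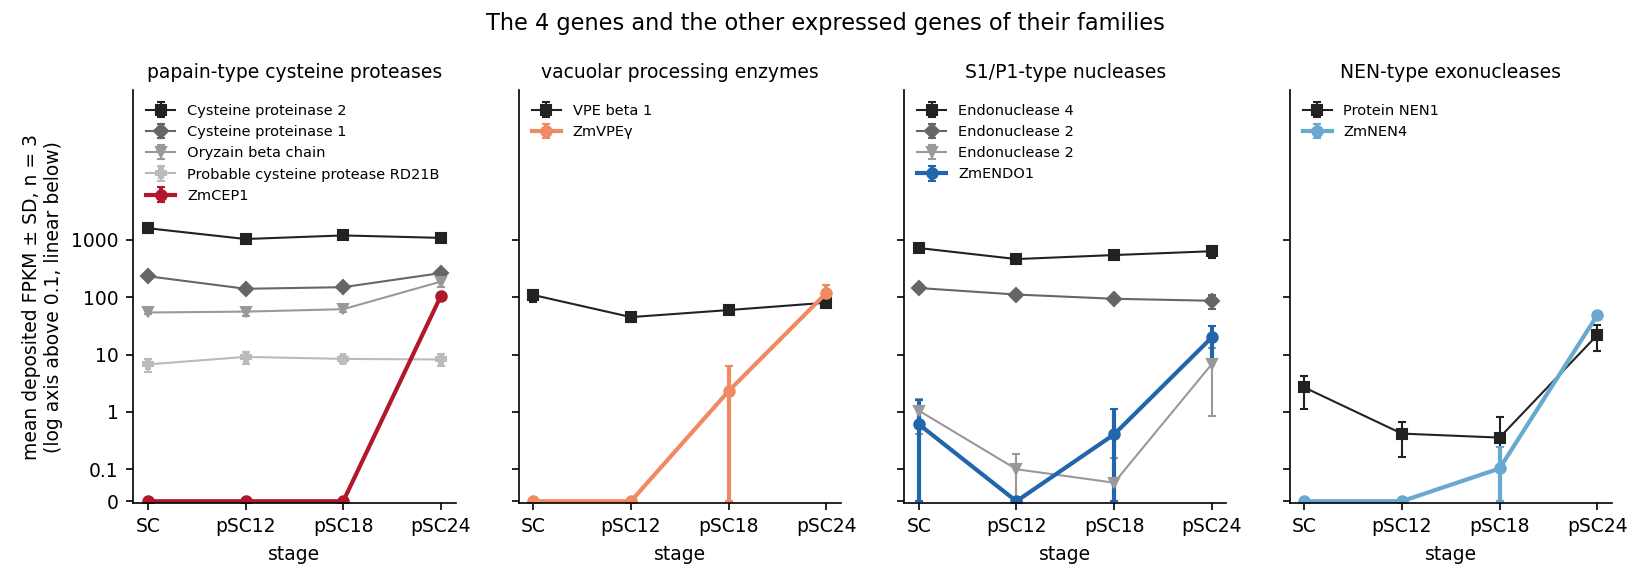
Mean deposited FPKM ± SD of 3 libraries (vertical axis, logarithmic above 0.1 and linear below) by stage (horizontal axis) for each of the 4 genes, in colour, and up to 4 relatives that reached 5 FPKM in any stage, in grey. ZmCEP1 and ZmENDO1 rise beneath more abundant relatives, ZmVPEγ passes the beta-isozyme 1, and ZmNEN4 rises with the gene described as NEN1.

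Other classes of death-related hydrolases and inhibitors were measured in the same step from SC to pSC24, in which 10.3% of all tested genes were called higher and 7.57% lower. Metacaspases, cysteine proteases with a cut after arginine or lysine, had 16 genes, of which 5 were tested and none was called from SC to pSC24 by edgeR. Of these 5, 3 had an unadjusted p under 0.05, and DESeq2 called 1. The share of all tested genes at that unadjusted threshold, or called by DESeq2, is not given here. Metacaspase-5 (Zm00001eb150730), the most abundant, was at 160 ± 8.85 FPKM in SC and 112 ± 5.28 in pSC24, a change under the fold threshold. Zm00001eb390830 and Zm00001eb023930, both described as Metacaspase-1, went up, from 27.1 to 50.3 and from 3.87 to 8.22 FPKM. Neither was called in the main fit, and each was called under 1 of 4 scalings. Of the 6 T2 ribonucleases, acid RNases of the vacuole and the cell exterior, 3 were tested, and none was called by edgeR or DESeq2 or had an unadjusted p under 0.05. From pSC18 to pSC24 none was called, but 2 of the 3 rose by less than the fold threshold. Zm00001eb041390 went from 52.6 to 96.6 FPKM (edgeR adjusted p = 0.039) and Zm00001eb144680 from 43.0 to 68.0 (edgeR adjusted p = 0.044). Of the 7 aspartic proteases with a saposin domain, 3 were tested and 1, Zm00001eb332290, was lower, at 77.3 ± 13.1 against 36.3 ± 4.68 FPKM. It lost the call when libraries were scaled to total counts. The more abundant Zm00001eb296120 and Zm00001eb343950 went from 1404 to 740 and from 760 to 434 FPKM and were not called. Of the 11 cystatins, the protein inhibitors of papain-type proteases, 8 were tested and 1 was higher. From pSC18 to pSC24 2 of these 8 were called higher, against 4.82% of all tested genes, namely Zm00001eb287890 (8.68 to 20.4 FPKM) and Zm00001eb291480 (4.51 to 14.8 FPKM). The most abundant, Zm00001eb021040, was at 1629 ± 151 FPKM in SC and 1675 ± 368 in pSC24. The cystatins summed to 2162 ± 489 FPKM in pSC24, beside 1659 ± 52.8 for the papain-type proteases. The median log2 change from SC to pSC24 was -0.07 for metacaspases, 0.25 for T2 ribonucleases, -0.94 for the aspartic proteases and 0.00 for cystatins.

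The 6 NAC transcription factors that the study names as cell death regulators were set beside the enzymes for their timing. Like the enzymes, they were picked in the study from these libraries. All 6 were called higher in pSC24 than in pSC18 by edgeR, where 4.82% of all tested genes were. DESeq2 called 3 of them on all 12 libraries, where its share of all genes is not given here. On the 6 libraries compared it called all 6, among 1561 genes called higher. ZmNAC087L2 was at 16.0, 11.4 and 34.2 FPKM in pSC18, 15.1% of its pSC24 mean, and was called higher than in SC (edgeR adjusted p = 0.0027). ZmNAC087L1 and ZmNAC087L4 stood at 11.3% and 9.28% of their pSC24 means in pSC18, with reads in all 3 libraries. ZmNAC087L4 was also called higher in pSC18 than in SC (edgeR adjusted p = 0.027), a call that was lost on leaving out replicate 2 or 3 of pSC18 or any 1 of the SC libraries (edgeR adjusted p = 0.053 to 0.11). ZmKIL1, ZmNAC087L3 and ZmKIL2 stood at 3.04%, 1.37% and 1.13%. These percents leave out the level before pollination. ZmNAC087L1 was at 0.994 FPKM in SC and 2.885 in pSC18 (edgeR adjusted p = 0.21). ZmNAC087L3 was at 0.883 FPKM in SC and lower, at 0.416, in pSC18 (edgeR adjusted p = 0.28). Of the 6, 2 were called higher in pSC18 than in SC, where 4.3% of tested genes were called in either direction. The enzymes stood at 0% for ZmCEP1, 0.213% for ZmNEN4, 1.96% for ZmVPEγ and 2.04% for ZmENDO1, the last pair from a single library each. The floor of 3 counts per library would be 0.0854% for ZmCEP1, a limit that reflects sequencing depth only. Transcripts lost before sequencing are not covered by it, and such loss was not measured.

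**Figure D4:**
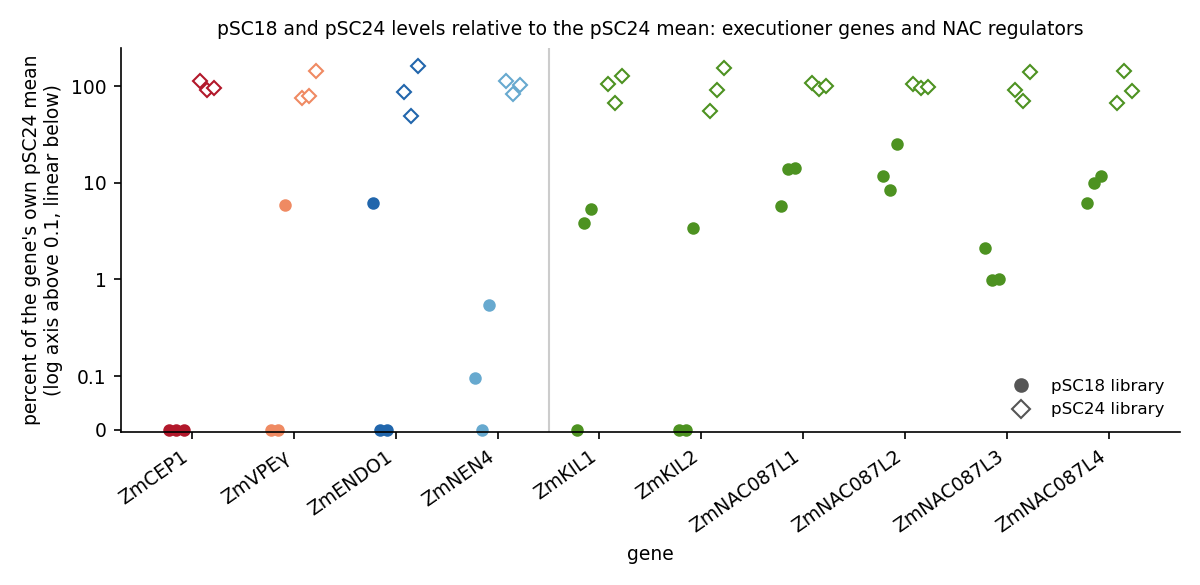
Level in each pSC18 library (filled circles) and pSC24 library (open diamonds) as a percent of the same gene's pSC24 mean (vertical axis, logarithmic above 0.1 and linear below), for the 4 enzymes on the left and 6 NAC regulators on the right. The 3 pSC18 points of ZmCEP1 are at 0, ZmVPEγ and ZmENDO1 have 1 point each off zero, and ZmNAC087L1, L2, L3 and L4 have all 3 off zero. SC and pSC12 are not drawn, and ZmNAC087L1 and L3 had reads in every SC library.

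The genes most like each enzyme were found as the 3 with the highest Pearson correlation of log2(FPKM + 1) over the 12 libraries, among 11512 genes with a mean of 5 FPKM or more in some stage. These values are descriptions, since the libraries fall into pSC24 and the rest and any gene confined to pSC24 scores high. By this measure ZmCEP1 and ZmNEN4 were among each other's 3, with r = 0.999. Neither was among the other's 3 with a pseudocount of 0.1 (r = 0.991) or with Spearman's rho (0.850). The others nearest to ZmCEP1 were Zm00001eb421880, described as purple acid phosphatase 22 (r = 0.998), and Zm00001eb230160. Nearest to ZmNEN4 was Zm00001eb357350, described as WRKY transcription factor 9 (r = 0.999), and the last of its 3 was Zm00001eb367240, an acetyltransferase. Nearest to ZmVPEγ were Zm00001eb146970 (GL2-interacting repressor 1, r = 0.998), Zm00001eb401880 (LURP-one-related 6) and Zm00001eb137810 (no protein match), each with reads in pSC18. Nearest to ZmENDO1 were Zm00001eb347490 (ESKIMO 1, r = 0.982), Zm00001eb284070 and Zm00001eb151540, the last pair with no protein match. Within the 4, ZmVPEγ and ZmENDO1 were the least alike (r = 0.904). The 3 nearest genes depend on the measure. With a pseudocount of 0.1 they shared 1 with the 3 above for ZmCEP1, 2 for ZmVPEγ, 1 for ZmENDO1 and 2 for ZmNEN4, and with Spearman's rho 1 for ZmCEP1 and 0 for each of the others.

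The genes beside them on the chromosome were tested in the same way. Within 100 kb of the 4 genes lay 13 others, none of them beside ZmENDO1. Of the 9 that could be tested, 2 were called higher and 1 lower from SC to pSC24, against 10.3% and 7.57% of all tested genes. The nearest gene to ZmNEN4, 68 bases away on the opposite strand (Zm00001eb267620), was at 14.5 ± 0.138 FPKM in SC and 6.56 ± 1.96 in pSC24, so it fell (edgeR adjusted p = 0.0065), a call lost when libraries were scaled to total counts. It was already at 6.57 FPKM in pSC12 and 7.20 in pSC18, and pSC24 did not pass the test against pSC18 (edgeR adjusted p = 0.78). The library kit does not mark strand, but the annotated genes do not overlap. The nearest to ZmVPEγ, 317 bases away (Zm00001eb345410), was at 1.18 ± 0.454 and 2.68 ± 0.712 FPKM and was not called. The genes called higher were a locus of low level 5088 bases from ZmCEP1, described as an aldo-keto reductase fragment, and Zm00001eb267600, described as MEI2-like 3 and 6256 bases from ZmNEN4. The latter was at 1.57 ± 0.372 FPKM in SC and 11.9 ± 2.16 in pSC24 (edgeR adjusted p = 2.8e-05).

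Markers of neighbouring cell types were measured in the same libraries. The nucellus, the ovule tissue around these cells, was not covered, since the search of gene descriptions matched 0 genes for it. Of 26 storage protein genes of the endosperm (zeins), 25 had 0 counts in every pSC24 library. The exception was Zm00001eb099950, the 16 kDa gamma-zein, at 61.1, 75.3 and 149.5 FPKM in pSC24 and at 0 in every earlier library but one, pSC18 replicate 2, which had 6 counts. The zeins therefore summed to 61.1 to 149.5 FPKM in pSC24, to 0 to 0.346 in pSC18, and to 0 in SC and pSC12. The 2 genes for egg cell-secreted proteins summed to 172 to 428 FPKM in SC and 42.8 to 119 in pSC24. The 7 endosperm transfer cell and maternally expressed genes summed to 1190 to 2074 FPKM in SC and 1080 to 1671 in pSC24. Of these 7, 5 had 0 counts in every library. Most of the sum came from a locus without a gene identifier, at 1536 FPKM in SC and 1230 in pSC24. The sum was high before pollination, so it does not single out endosperm RNA. The 23 zygote and embryo genes summed to 6.84 to 8.84 and 8.94 to 10.8 FPKM. Among them Zm00001eb148390 (WUSCHEL-related homeobox 5), named after its values were seen, was at 0.0326 FPKM in SC, 1.56 in pSC18 and 1.998 in pSC24 and was called higher in pSC24 than in SC (edgeR adjusted p = 0.018), in 20 of 26 settings. The call was lost without SC replicate 2 or 3 or pSC24 replicate 2 (edgeR adjusted p = 0.05 to 0.07). It was not called against pSC18 (edgeR adjusted p = 0.89). Others of the 23 were lower in pSC24, such as Zm00001eb395430 (WUSCHEL-related homeobox 6), at 2.96 FPKM in SC and 0.385 in pSC24. Zm00001eb367990 was at 0.663 and 0.0956 FPKM, and edgeR called neither. The gamma-zein, alone among the 26 zeins, and Zm00001eb148390 were thus higher in pSC24 than in SC along with the enzymes. The part of RNA from endosperm or embryo in the rise of the enzymes was not tested.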

How the data were processed

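Synergid cells of maize B73 were sequenced in 12 libraries after SMART-Seq amplification without molecular identifiers, so repeated PCR copies are counted. Per the labels and the submitters' processing notes, the authors trimmed reads with cutadapt 1.15, aligned them with HISAT2 2.0.5 to build AGPv5 and made the deposited counts per gene with featureCounts 1.5.0-p3. How reads that fit several genes were treated is not given in the sources used here. The deposited FPKM values were made by the authors from those counts, and dividing each count by gene length and by 1 factor per library gave them back (largest relative deviation 5.1e-15).

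Counts were tested with edgeR 4.0.16 in R 4.3.3, by the quasi-likelihood test on all 12 libraries with TMM scaling and filterByExpr by stage. A call needed a Benjamini-Hochberg adjusted p under 0.05 within its comparison, with an absolute log2 change above 1. Fitted fold changes against silent stages depend on the prior count, so folds are given as FPKM ratios, or as lower bounds against 3 counts per library. These bounds reflect sequencing depth only and do not cover transcripts lost before sequencing. DESeq2 1.42.0, other scalings and filters, a replicate block and leaving out each library were alternatives. A further alternative was a term that splits the libraries into a lower and a higher share of mapped reads. How far this term overlaps with stage is not given here, so calls lost with it cannot be told apart from such an overlap. The scripts were tested on simulated counts.

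The members and lists were chosen with earlier results of these data known. Family lists were redrawn by protein domain after the first text search, with values seen, was found to miss papain-type proteases and to catch unrelated genes, so no list was tested. The text names the 4 members, the 3 genes most like each, 6 NAC regulators, relatives highest in pSC24 or SC, and genes sharing a member's description; neighbours, the genes called in a list and single markers were named after their values were seen. The authors' own fold changes and p-values were not used.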

Additional observations from a re-analysis of the deposited data

How the results depend on the processing

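Of 297 alternative tests of the 4 genes between pSC24 and the 3 earlier stages, 274 kept the call and 23 lost it, and none turned the direction. All 23 concerned ZmVPEγ against pSC18 and ZmENDO1 against pSC18 and SC. The 297 leave out DESeq2 on 12 libraries for ZmVPEγ, which gave no adjusted p against any of the 3 earlier stages. For ZmVPEγ against pSC18 the adjusted p was 0.15 with DESeq2 on the 6 libraries compared. It was 0.12 with the term for a lower or higher share of mapped reads, and 0.11 with that term and a replicate block. With glmTreat against a fold of 2 it was 0.1. Leaving out single libraries gave 0.00024 to 0.062, the highest without pSC24 replicate 3. For ZmENDO1 against pSC18 it was 0.087 and 0.082 with DESeq2 on 12 and on 6 libraries, 0.14 with the mapped-read term, 0.15 with glmTreat, and 0.16 without replicate 3 of both pSC18 and pSC24, a choice made after seeing the data. Leaving out single libraries gave 0.016 to 0.11, with the call lost without pSC18 replicate 2 or 3 or any pSC24 library. For ZmENDO1 against SC it was 0.11 with DESeq2 on 12 libraries, 0.1 with the mapped-read term, 0.093 with glmTreat and 0.056 without both of those libraries. Leaving out single libraries gave 0.011 to 0.098, with the call lost without SC replicate 2 or 3 or pSC24 replicate 1 or 3. From pSC18 to pSC24 the number called of 4 was therefore 2 with either form of DESeq2, the mapped-read term or glmTreat, and 2 to 4 without single libraries. From SC to pSC24 it was 2 with DESeq2 on 12 libraries, which gives no adjusted p for ZmVPEγ. The causes were not tested.

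Of the 18 pairs of libraries that share a replicate number across stages, 0 had correlated deviations over 0.1, so the numbers were not taken to pair the libraries. With a replicate block all 4 genes remained called from pSC18 to pSC24, with adjusted p = 0.013 for ZmVPEγ and 0.01 for ZmENDO1. Over all genes, the number called higher from pSC18 to pSC24 was 1019, and ran from 212 with the mapped-read term and replicate block to 1561 with DESeq2 on 6 libraries. From pSC12 to pSC24 it was 1835 (845 to 2452), and from SC to pSC24 2170 (950 to 2911). From SC to pSC12 it was 343 (0 to 979), the lowest with the mapped-read term and replicate block. From pSC12 to pSC18 4 genes were called higher (0 to 339, the most with DESeq2 on 12 libraries) and 1 lower (0 to 101, the most with DESeq2 on 6). Total count scaling moved the median gene from SC to pSC24 from 0.05 to 0.28 on the log2 scale. The first text search gave 2 papain-type genes called from SC to pSC24, ZmCEP1 not among them, where the domain list gave 3. The early-stage values of all 4 genes rest on 0 to 257 counts a library, so levels under the floor were not detectable at this depth.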
